A study of Mus musculus with 6 samples.

Results

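The striated muscle miRNAs are the small regulatory RNAs that skeletal and heart muscle make in quantity, and they were examined here in vesicles released by mouse endothelial cells, which form the inner lining of vessels. The 8 members were taken by name: mmu-miR-1a-3p, mmu-miR-133a-3p, mmu-miR-133b-3p, mmu-miR-206-3p, mmu-miR-206-5p, mmu-miR-208a-3p, mmu-miR-208b-3p and mmu-miR-499-5p (mmu, for mouse, is left out from here on), each with 1 probe among the 1118 mouse miRNA probes of the array. Purchased mouse endothelial cells, grown with serum, endothelial growth supplement and heparin, were kept for 48 h at 0.9 mM inorganic phosphate (normal, 3 arrays) or at 3.5 mM (high, 3 arrays). Vesicles were pelleted from the supernatant by differential centrifugation, and their RNA was labelled with the dye Hy3 and hybridised to 1-colour arrays. The series compares the miRNA content of the vesicles between these phosphate levels with arterial calcification in kidney failure in view. The labels do not say whether vesicles native to the serum were removed, or whether replicate arrays stem from separate cultures, so p-values measure the spread between these arrays, which may be technical.

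A miRNA pairs with messenger RNAs through its seed, bases 2 to 8 from its 5′ end, and lowers their stability and translation. miR-1a and miR-206 form 1 seed family and promote muscle differentiation, and miR-133a and miR-133b, near-identical to each other, are transcribed with them from shared loci. miR-206 and miR-133b are typical of skeletal muscle, whereas miR-1a and miR-133a are made in both skeletal and heart muscle. miR-208a, miR-208b and miR-499 lie in introns of the myosin heavy chain genes Myh6, Myh7 and Myh7b and are linked to the choice of myosin type. None of the 8 is a marker of endothelium.

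Mature sequences of 6 of the 8 members were taken from RefSeq (build GRCm38.p6). They are shown because the seeds and the near-matches set which probes could bind each other's target. The seed is in capitals.

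miR-206-3p: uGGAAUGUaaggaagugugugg
miR-206-5p: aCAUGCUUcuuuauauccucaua
miR-1a-1-5p: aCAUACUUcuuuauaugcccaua
miR-133b-3p: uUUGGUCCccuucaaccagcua
miR-208a-3p: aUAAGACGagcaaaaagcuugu
miR-208b-3p: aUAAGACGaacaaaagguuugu
miR-499-5p: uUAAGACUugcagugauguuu

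In GRCm38.p6 the arms of miR-206 lie at chr1:20679017-20679039 (5p) and chr1:20679055-20679076 (3p) on the plus strand. miR-133b-3p follows on the same strand at chr1:20682834-20682855, and 3686 bases separate the 2 hairpins. miR-208a-3p lies at chr14:54949072-54949093 and miR-208b-3p at chr14:54975710-54975731, both on the minus strand, and miR-499-5p lies at chr2:155622893-155622913 on the plus strand. With positions counted from the 5′ end and the base of the first-named miRNA written first, miR-208a-3p and miR-208b-3p share the seed and differ by 3 of 22 bases (G10A, A16G and C18U), and the seed of miR-499-5p differs from theirs by 1 base (G8U). miR-206-5p and miR-1a-1-5p, the opposite arm of a miR-1a hairpin (chr2:180389057-180389079, plus strand) and not a member, differ by 3 of 23 bases (G5A, C17G and U19C). Among mouse probes with a sequence among the entries used, these 2 pairs were the only ones within 6 ungapped differences of a member or sharing a member's seed. All sequence entries of 1 chromosome were left out before this comparison. The members miR-1a-3p and miR-133a-3p had no sequence among the entries used and were not compared. Near-matches among the entries left out would have been missed. Whether the probes of miR-1a-3p and miR-206-3p, which share a seed, bind each other's target was not tested. Their signals may therefore not be independent.

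Signal is given as foreground minus local background in intensity units, averaged over the 4 spots of a probe. A probe was called bright where it exceeded the 95th percentile of 57 probes for miRNAs of viruses, foreign to mouse cells. That threshold lay between 1627 and 3233 units, and 97 to 147 mouse probes exceeded it per array. The 95th percentile of the Empty spots lay at 2 to 3 units. Both arms of the endothelial miR-126a exceeded the viral-probe threshold on all 6 arrays. The Hy3 control spots were dimmer in high phosphate, with array means of 8.09 to 8.58 against 8.95 to 9.27 log2 units, and so were the tested mouse probes, at 12.38 to 12.58 against 12.60 to 12.72 log2 units. Different probes bind with different strength, so levels are read against the thresholds and not against each other.

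Of the 8 muscle probes, 2 were bright, miR-206-3p and miR-1a-3p, and they were so on all 6 arrays. The other 6 stayed under the viral-probe threshold on every array. Over all mouse probes, 129 of 1118 (11.5%) were bright on at least 3 arrays. The brightest viral probe of each array measured 8628.5 to 17426.5 units. miR-206-3p exceeded it on every array. miR-1a-3p lay under it in high phosphate replicates 1 (7171.5 against 17426.5 units) and 3 (8720.75 against 9055 units).

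miR-206-3p measured 33662, 29677 and 41251 units in normal phosphate replicates 1 to 3 and 26759, 37137 and 21138 units in high phosphate replicates 1 to 3. These values were 10.0 to 16.7 times the threshold of the same array, and the groups overlapped, since high phosphate replicate 2 exceeded normal phosphate replicates 1 and 2. miR-1a-3p measured 23625, 14505 and 15350 units in normal and 7172, 10301 and 8721 units in high phosphate, 2.69 to 11.7 times the threshold. Every high phosphate array lay under every normal phosphate array for miR-1a-3p before scaling, and the highest value, in normal phosphate replicate 1, stood well apart from the other two of its group.

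**Figure D1:**
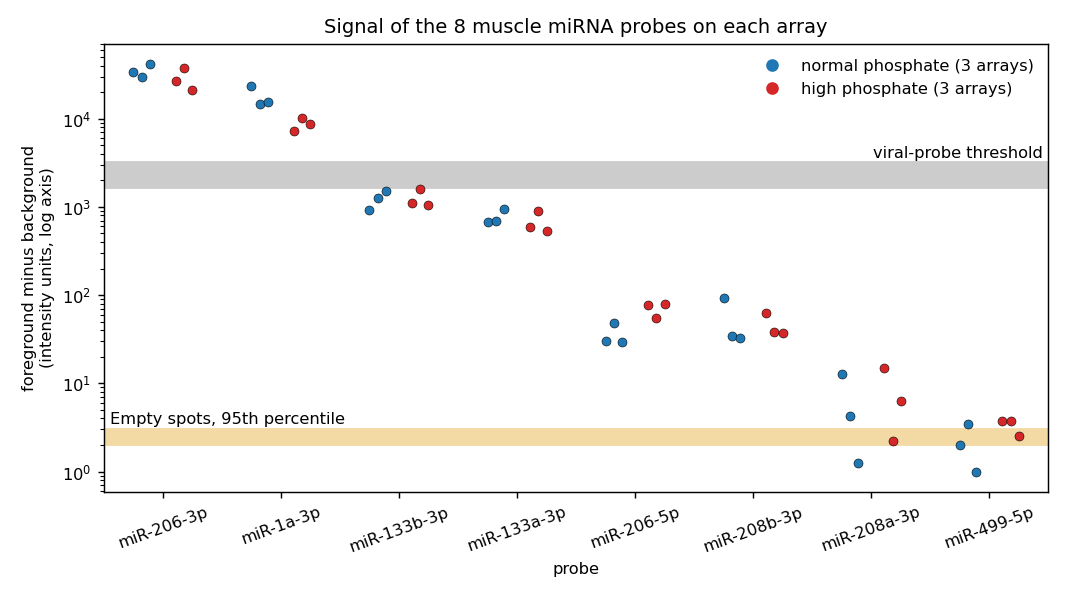
Foreground minus background (intensity units, log axis) of the 8 muscle miRNA probes, with 1 point for each array, blue for normal and red for high phosphate. The grey band spans the viral-probe thresholds of the 6 arrays (1627 to 3233 units) and the yellow band the 95th percentiles of the Empty spots (2 to 3 units); miR-206-3p and miR-1a-3p lie above the grey band, and miR-499-5p lies in or next to the yellow one.

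The miR-133 probes stayed under the threshold on every array. miR-133b-3p measured 929.8, 1276.5 and 1522 units in normal and 1112, 1601 and 1061 units in high phosphate. miR-133a-3p measured 674, 691 and 947 units in normal and 598, 888.5 and 536 units in high phosphate. For both the groups overlapped, with means of 1243 ± 297 and 1258 ± 298 units (SD, n = 3) for miR-133b-3p and 771 ± 153 and 674 ± 188 units (SD, n = 3) for miR-133a-3p. These values were 0.417 to 0.722 and 0.224 to 0.400 of the threshold. Of 7 negative control probes, 1 gave 689 to 1440 units, so a signal of this size does not establish that the miRNA was present. The miR-133 probes varied together over the arrays (Pearson r = 0.86 over 6 arrays that share their labelling and brightness, a description). Because these miRNAs are near-identical, shared binding and shared presence cannot be told apart.

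The heart-linked miR-208 and miR-499 probes were far under the viral-probe threshold, and miR-499-5p and some arrays of miR-208a-3p were close to the Empty spots. miR-208b-3p measured 92.25, 34.25 and 32.5 units in normal and 63.5, 38.5 and 37.0 units in high phosphate, above the Empty spots on all 6 arrays, with replicate 1 the highest of each group. miR-208a-3p, with the same seed, measured 12.75, 4.25 and 1.25 units in normal and 15, 2.25 and 6.25 units in high phosphate, and exceeded the Empty spots on 5 arrays. Its highest value in each group was again that of replicate 1. Each probe has spots in a first and a second set of array blocks, and in high phosphate this order held only in the first. There replicate 1 gave 97 units for miR-208b-3p and 21 units for miR-208a-3p. In the second set replicate 1 gave 30 and 9 units, below the 42.5 and 9.5 units of replicate 3. miR-499-5p measured 2.0, 3.5 and 1.0 units in normal and 3.75, 3.75 and 2.5 units in high phosphate, and exceeded the Empty spots on 4 arrays. Its highest value in either group stayed close to the Empty spots.

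The arms of miR-206 fell on opposite sides of the threshold. miR-206-5p, the strand that is usually degraded, measured 30.5, 47.75 and 29.5 units in normal and 78.0, 55.25 and 79.5 units in high phosphate, at most 0.049 of the threshold but above the Empty spots on all 6 arrays. A negative control probe gave 60.25 to 159 units, and 27 of the 57 viral probes and 2 of the 7 negative controls reached 50 units on all arrays, so a signal of this size does not show that the arm was present. All 3 high phosphate arrays exceeded all 3 normal phosphate arrays, with group means of 35.9 ± 10.3 and 70.9 ± 13.6 units (SD, n = 3; 2-sided exact permutation p = 0.1, the lowest value a design of 3 against 3 can give). The 3p arm had group means of 34863 ± 5879.5 and 28345 ± 8117 units (SD, n = 3; 2-sided exact permutation p = 0.4). Non-overlapping groups with a higher mean in high phosphate were found for 59 of 1118 mouse probes before scaling (5.28%), and miR-206-5p was the only one of the 6 dim members among them. The groups were apart in either set of array blocks, with 27.5 to 49.5 units (normal) and 53.5 to 80.5 units (high) in the first set, and 30 to 46 units (normal) and 55.5 to 105.5 units (high) in the second. Both sets are spots of the same 6 arrays, split after the spot values were seen, so this adds no independent support. High phosphate replicate 3 gave 53.5 units in the first and 105.5 units in the second set. In a limma fit without the brightness filter, miR-206-5p had a log2 difference of 0.31 (SE 0.06) with an unadjusted p of 0.00361. It did not pass over 1118 probes (Benjamini-Hochberg adjusted p = 0.679). Signals in this fit carried the normexp offset of 50 units, which shrinks log2 differences of dim probes. Neither 0.31 nor its SE can therefore be compared directly with the group means in units or with the authors' fold. In that fit 62 of 1118 probes (5.55%) had an unadjusted p under 0.05. The authors' deposited table lists miR-206-5p with a fold of 1.97, a p of 0.0297 and a false discovery rate of 0.794, in a table where 39 of 1029 probes (3.79%) had a p under 0.05.

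**Figure D2:**
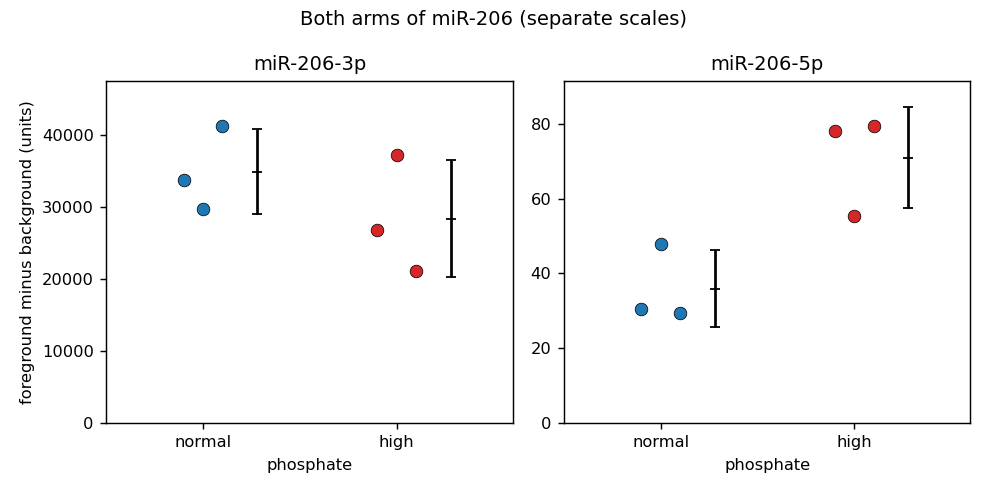
Foreground minus background (units, linear axes starting at 0) for the 3p arm (left) and the 5p arm (right) of miR-206, with 1 point for each array and a bar for the mean ± SD of 3 arrays. The axes differ about as much as the signals, 21138 to 41251 units for the 3p arm and 29.5 to 79.5 units for the 5p arm, and the groups are apart only for the 5p arm.

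The near-match miR-1a-1-5p, which differs from miR-206-5p by 3 bases, measured 34.5, 107.75 and 61.0 units in normal and 61.75, 117.0 and 100.75 units in high phosphate, with overlapping groups. Whether this probe and that of miR-206-5p bind each other's target was not tested. The array held 9 further probes for arms of the members' hairpins or of miR-1b, which is not a member. They include miR-1a-1-5p, and all stayed under the viral-probe threshold on every array. Of these, 3 reached 50 units on all arrays, namely miR-1b-5p at 840 to 962.5, miR-133b-5p at 91.75 to 287 and miR-1a-2-5p at 83.25 to 129 units. miR-499-3p was the 1 of the 9 whose groups did not overlap, with 15.75, 32.75 and 17.5 units in normal and 51.5, 36.5 and 67.75 units in high phosphate (2-sided exact permutation p = 0.1). Over all mouse probes, 59 of 1118 (5.28%) had non-overlapping groups in this direction. A signal of this size does not show that the arm was present. miR-208b-5p lay under the Empty spots on all 6 arrays. For miR-1a and miR-206 alike, the 3p probe was bright and every 5p probe was dim.

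In the comparison of high with normal phosphate, neither bright muscle miRNA passed the test. After background correction and quantile normalization, 129 bright mouse probes were fitted with limma, 0 (0%) passed Benjamini-Hochberg adjustment at 0.05 and 9 (6.98%) had an unadjusted p under 0.05. miR-1a-3p had normalized levels of 14.55, 13.66 and 13.66 in normal and 12.76, 13.49 and 13.41 in high phosphate on the log2 scale. The arrays of the 2 groups did not overlap, which held in this direction for 7 of 129 probes (5.43%). High minus normal came to -0.74 log2 units (SE 0.33), a fold of 0.60, and its 95% interval ran between -1.50 and 0.02 (limma, unadjusted p = 0.0552, adjusted p = 0.712). It was the fifth lowest of the 129 differences. Before scaling the means were 17826.5 ± 5039 and 8731 ± 1565 units (SD, n = 3; 2-sided exact permutation p = 0.1, the smallest possible), and 15 of 129 tested probes (11.6%) had non-overlapping groups lower in high phosphate. The difference rested in part on the extreme arrays, since it was -0.45 without normal phosphate replicate 1 and -0.51 without high phosphate replicate 1.

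miR-206-3p had normalized levels of 14.94, 14.88 and 15.01 in normal and 14.73, 15.01 and 14.73 in high phosphate on the log2 scale. High minus normal came to -0.12 log2 units (SE 0.19; 95% interval -0.56 to 0.32; limma, adjusted p = 0.891), and the groups overlapped. The probe ranked between 7 and 11 in brightness among 1118 mouse probes on every array, and quantile normalization sets a level from the rank alone. Without normalization between arrays the difference was -0.32 (SE 0.31). Of all 129 tested probes, 67 (51.9%) had a lower mean in high phosphate, and both bright muscle probes were among them. That split of 67 lower and 62 higher turned to 91 and 38 with median scaling, 93 and 36 with no scaling between arrays, 92 and 37 in the authors' deposited normalized intensities, and 10 and 119 with scaling to the spike controls or the Hy3 spots.

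**Figure D3:**
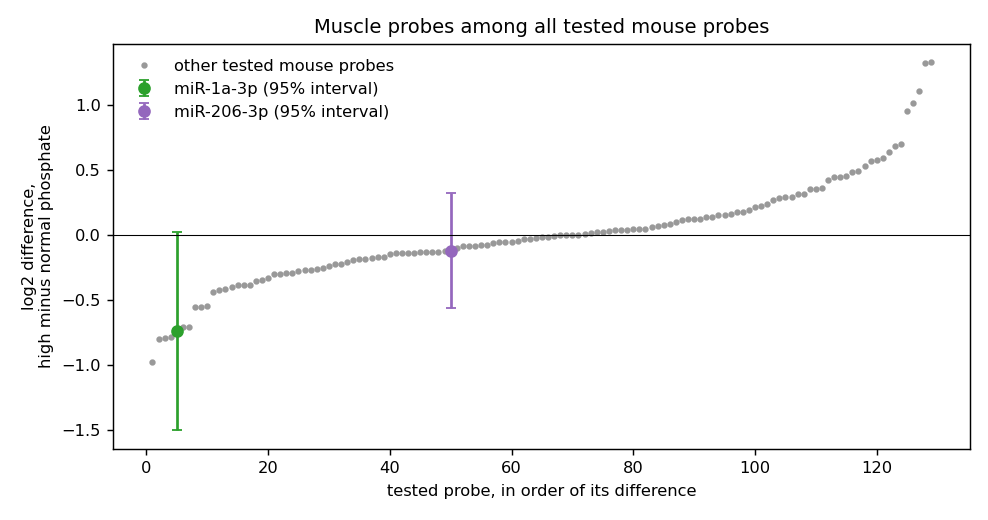
Log2 differences (high minus normal phosphate, limma) of the 129 tested mouse probes in ascending order, with miR-1a-3p in green and miR-206-3p in purple, each with its 95% interval. miR-1a-3p is the fifth lowest, with an interval that reaches 0.02, and miR-206-3p lies in the middle of the order at -0.12.

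Scaling moved both values together with all other probes. Scaled to the spike controls or to the Hy3 spots, the median of all tested probes stood at 0.44 or 0.48 and miR-206-3p at 0.33 or 0.37, whereas miR-1a-3p stood at -0.35 or -0.31. Relative to the median of all tested probes, miR-1a-3p was at -0.72 in the reported fit and between -0.88 and -0.42 in 19 alternatives, and miR-206-3p at -0.10 and between -0.35 and -0.03. The adjusted p of miR-1a-3p ranged from 0.450 to 0.973 over these alternatives. A ratio within an array needs no scaling: the log2 excess of miR-206-3p over miR-1a-3p was 0.51, 1.03 and 1.43 in normal and 1.90, 1.85 and 1.28 in high phosphate. The means were 0.99 ± 0.46 and 1.68 ± 0.35 (SD, n = 3), a difference of 0.69 that exceeded both SDs but did not separate the groups (2-sided exact permutation p = 0.2), since high phosphate replicate 3 fell under normal phosphate replicate 3. This ratio shows only whether the probes changed unequally, not which miRNA was more abundant. Fewer vesicles with a miRNA and less of it in each vesicle cannot be told apart in these bulk samples.

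**Figure D4:**
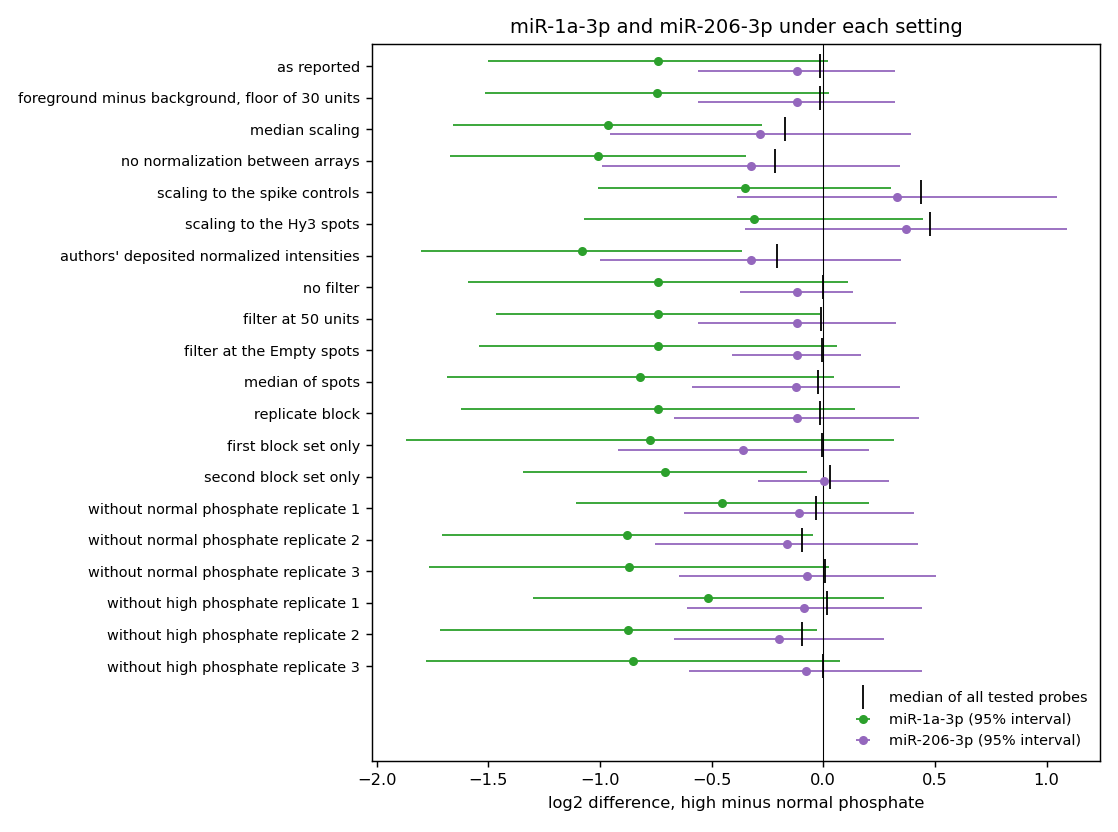
Log2 differences (high minus normal phosphate) of miR-1a-3p (green) and miR-206-3p (purple) with 95% intervals as reported and under 19 alternatives, and the median of all tested probes as a black tick. miR-1a-3p is below 0 and below the median in every line, and miR-206-3p crosses 0 when arrays are scaled to the spike controls or the Hy3 spots and lies at 0.0028 with the second block set alone.

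Each probe had 2 spots in the first and 2 in the second set of array blocks, and miR-206-3p was brighter in the second set on all 3 high phosphate arrays. Over the tested probes the median ratio of the second to the first set was 1.00 to 1.08 per array. For miR-206-3p this ratio was 0.971, 1.03 and 1.17 in normal and 1.52, 1.47 and 1.26 in high phosphate. For miR-1a-3p it was 2.16 in high phosphate replicate 1, where the 4 spots ran from 4377 to 12264 units, and 0.957 to 1.23 on the other 5 arrays. The median coefficient of variation over the spots of the tested probes was 5.84% to 11.2% on normal and 16.2% to 30.3% on high phosphate arrays, and its part in the differences was not tested. Read from either set alone, an alternative added after the spot values were seen, miR-1a-3p kept its sign, with a log2 difference of -0.78 (SE 0.47) in the first and -0.71 (SE 0.25) in the second set (limma, adjusted p = 0.701 and 0.550). miR-206-3p stood at -0.36 (SE 0.24) in the first and 0.0028 (SE 0.12) in the second set (limma, adjusted p = 0.701 and 0.991). The groups of miR-1a-3p were apart in the first set too, where normal phosphate gave 13336 to 21183 units and high phosphate 4532.5 to 10184 units. Both sets come from the same arrays, so they are not independent.

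**Figure D5:**
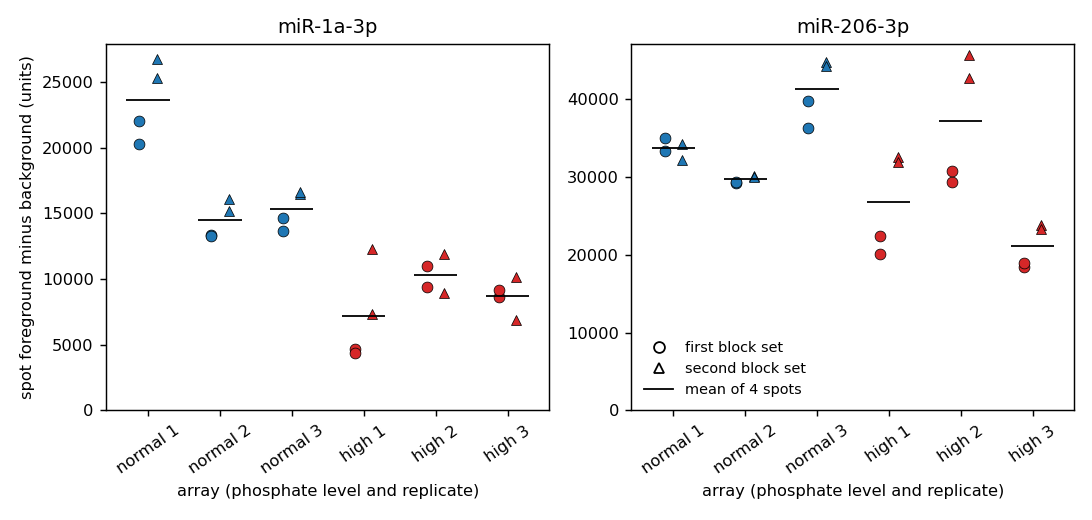
Foreground minus background (units, axes starting at 0) of the 4 spots of miR-1a-3p (left) and miR-206-3p (right) on each array, circles for the first and triangles for the second set of array blocks, with a line at the mean. In miR-1a-3p the spots of high phosphate replicate 1 spread from 4377 to 12264 units, and in miR-206-3p the mean of the second set lies above that of the first on all 3 high phosphate arrays.

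The dim members other than miR-206-5p showed no separation of the groups. On values before scaling the 2-sided exact permutation p was 0.5 for miR-133a-3p, 1.0 for miR-133b-3p, 0.6 for miR-208a-3p, 1.0 for miR-208b-3p and 0.2 for miR-499-5p. In the limma fit without the filter, their log2 differences lay between -0.24 (SE 0.20) for miR-133a-3p and 0.03 (SE 0.22) for miR-133b-3p, and none passed over 1118 probes (adjusted p = 0.775 and 0.993). The offset of 50 units shrinks log2 differences of dim probes. In this fit miR-208a-3p stood at -0.049 and miR-499-5p at -0.027, whereas miR-208b-3p stood at -0.20 (SE 0.24). The authors' deposited table lists miR-1a-3p with a fold of 0.465 (p = 0.0525) and miR-206-3p with 0.811 (p = 0.296), each with a false discovery rate of 0.794.

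The probes whose normalized levels most resembled those of the bright muscle miRNAs were sought among the 128 other tested probes over the 6 arrays, as a description. For miR-1a-3p they were miR-26b-5p (Pearson r = 0.97) and the endothelial miR-10a-5p (r = 0.96), both highest in normal phosphate replicate 1 and lowest in high phosphate replicate 1. For miR-206-3p they were miR-30d-5p (r = 0.94) and miR-3070-5p (r = 0.91), both highest in normal phosphate replicate 3.

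Other miRNAs linked to muscle were listed by name, 19 names on 19 probes, and 10 probes were bright enough to test. High phosphate had the lower mean for 9 of these and the higher mean for 1. That 1 probe, at 0.0028 log2 units, is shared by miR-378a-3p, miR-378b and miR-378c. miR-378a-3p was also counted on a probe of its own, at -0.15. Over all tested probes 67 of 129 (51.9%) were lower, a split that changed with the scaling. In the list 0 passed the test (limma), as over all 129, and the median log2 difference was -0.11, against -0.02 over all 129 tested probes. miR-143-3p, miR-145a-5p and miR-486a-5p are also among the cell type markers below. The lowest p in the list belonged to miR-221-3p, known to restrain the cell cycle inhibitor p27 in vascular cells, with a log2 difference of -0.71 (SE 0.54, limma adjusted p = 0.854). miR-143-3p of smooth muscle followed at -0.17 (SE 0.19, limma adjusted p = 0.873). Its cluster partner miR-145a-5p, on a probe shared with miR-145b, was under the threshold on all arrays, with 853 to 1751 units in normal and 1136.5 to 1885 units in high phosphate.

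Probes for miRNAs of other cells were bright as well. Of the markers of red cells 3 of 3 were bright on all arrays, of endothelium 2 of 2, of smooth muscle 1 of 4, of liver 1 of 2, of leukocytes 1 of 4, of epithelium 1 of 5 and of neurons 0 of 3. Summed red cell marker signal was 50024 to 66834 units in normal and 37725.5 to 53541 units in high phosphate, and summed liver marker signal was 13686.5 to 25814 and 9574 to 15224 units. Those of smooth muscle were 43091.5 to 59214.5 and 33016.5 to 47093 units, and of endothelium 16243 to 18150 and 11923.5 to 17480 units. Leukocyte markers summed to 4675.5 to 7615 and 4087.5 to 5915 units, and epithelial markers to 6273.5 to 7917.5 and 5279 to 6641.5 units. The summed neuronal markers ran the other way, with 1144 to 2347 units in normal and 1845 to 2770.5 units in high phosphate. Within that list the mean rose from normal to high phosphate for miR-124-3p (191 to 541 units) and miR-128-3p (1207 to 1670 units). For miR-9-5p it fell, from 291 to 178 units. All these sums are before scaling. Their groups overlapped for all lists but were lower in range in high phosphate for all except the neuronal one. No marker was at 0, and miR-143-5p gave 14.5 to 23.0 units. The part of these cell types and of serum in the muscle miRNA signal was not tested.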

How the data were processed

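The authors deposited spot intensities of 1-colour arrays (foreground, and foreground minus background, per the file headers) for 15840 spots, and normalized intensities per probe. Their table also gives a fold (ratio of high over normal phosphate) with a p-value and false discovery rate, per the file headers. The labels name no scanner or image software. A further 24 intensity columns were not used.

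Here, background was corrected with normexp (offset 50) over all spots, spots were averaged and quantile normalization on the log2 scale used mouse plus viral probes. Mouse probes above the 95th percentile of the viral probes on at least 3 arrays were fitted with limma 3.58.1 (R 4.3.3), high minus normal, 2-sided, Benjamini-Hochberg adjusted over all of them. The fit was tested on simulated data. Single values had exact permutation tests (scipy 1.17.1). With 3 arrays a group, precision is limited by their number. Alternatives changed the scaling, background correction, filter, spot summary and arrays included.

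The named probes were all 8 members, other arms of their hairpins, both arms of miR-1b, near-matches in sequence and the 2 most similar probes of each bright member. From the muscle-linked list they were the 2 with the lowest p plus miR-143-3p and miR-145a-5p. Members and lists were chosen with earlier results of these data known.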

Additional observations from a re-analysis of the deposited data

How the results depend on the processing

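The count of mouse probes called was 0 in the reported fit, 7 with scaling to the Hy3 spots and 0 to 1 over the fits that lacked 1 array, the 1 without normal phosphate replicate 2. Neither bright muscle probe was called in any alternative, and no dim one in the fits without the filter, with or without the replicate block. Leaving out each array moved miR-1a-3p between -0.88 and -0.45 and miR-206-3p between -0.20 and -0.07 on the log2 scale. miR-206-3p reversed with scaling to the spike controls (0.33), with scaling to the Hy3 spots (0.37) and with the second set of array blocks alone (0.0028), an alternative chosen after seeing the data. These scalings shift all probes, and the cause of the change by block set was not tested. The number of muscle probes bright on at least 3 arrays was 2 as reported, 5 at 50 units and 8 at the Empty spots. On all 6 arrays it was 2, 4 and 6. miR-206-5p reached 50 units on the 3 high phosphate arrays only. The high minus normal difference in the log2 excess of miR-206-3p over miR-1a-3p stayed positive in every alternative, between 0.45 and 0.90 without each array. Of the dim probes, miR-133b-3p ran from -156 to 155 units, miR-208b-3p from -16.9 to 12.96 units and miR-208a-3p from -1.83 to 5.08 units without each array, so their directions are not settled. miR-133a-3p kept its direction but ran from -203 to -8.13 units, against -96.3 with all arrays, the extremes being without high phosphate replicate 2 and without normal phosphate replicate 3. miR-208a-3p also turned to -0.049 (log2) without the filter and to -0.0061 in the deposited normalized intensities, and miR-499-5p to -0.027 (log2) without the filter. With the replicate block, miR-1a-3p stood at -0.74 (limma, adjusted p = 0.673), miR-206-3p at -0.12, miR-208a-3p at -0.049 and miR-499-5p at -0.027, and 0 probes were called, so the block changed no call. Each probe's group mean was subtracted before arrays of the 2 groups were correlated over the tested probes. Same-numbered arrays then had correlations of 0.22, 0.026 and -0.18, and high phosphate replicate 2 correlated best with normal phosphate replicate 3 (0.45). With 3 arrays a group such deviations cancel within each group, which forces correlations of both signs. The check therefore showed no pairing by replicate number but cannot exclude it.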
